A study of Mus musculus with 46 samples.

Results

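The mitochondrial genome of the mouse carries 37 genes, and all 37 were present by symbol among the 46011 complete gene rows of the count table, where they were taken by the prefix mt- of the symbol. They comprise 13 protein-coding genes, 2 rRNA genes and 22 tRNA genes. Counts above 0 were found for 15 of them, the 13 mRNAs and both rRNAs, and all 15 passed the filter on low counts. The 22 tRNA genes were at 0 in every tumor.

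RNA was sequenced from AB1-HA tumors, a murine mesothelioma line that carries the influenza antigen HA, grown under the skin of both flanks of BALB/c mice of 8-10 weeks that the labels give as male. All mice received cyclophosphamide (CY) at 200 mg/kg on day 10, and a single tumor per mouse was resected while the other showed whether the mouse became a complete responder (CR) or a progressor (PR), a group that the series description calls partial responders. The 46 tumors were 13 CR and 13 PR at Day-1 (resected on day 9, before CY), 5 CR and 5 PR at Day+3 (day 13) and 5 CR and 5 PR at Day+7 (day 17). Every tumor came from a different mouse, so time after CY goes with tumor age, and tumors of mice left without CY at the later days were not analysed here.

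Covered counts per tumor, in units of 1e6, spanned 10.2 to 14.2 at Day-1, 15.4 to 18.7 at Day+3 and 16.05 to 19.4 at Day+7 (medians 12.1, 17.0 and 17.8), so depth also goes with time and cannot be told apart from it. They are sums over symbols up to Pax7, since later symbols were not analysed here, and shares given below are shares of these sums. The mesothelial marker Msln was present in every tumor, at 283 to 580.0 CPM (counts per 1e6 counts, scaled with TMM library sizes) at Day-1, 291 to 438 CPM at Day+3 and 51.0 to 127 CPM at Day+7. Of the markers listed with Msln as mesothelial and epithelial, Krt8 had medians of 10.2, 12.3 and 0.428 CPM at the 3 times. The others were low, with medians of 0.160, 0.284 and 0.264 CPM for Krt18 and 0.249, 0.312 and 0.209 for Krt19. Lrrn4 had medians of 0.506, 0.208 and 0.199 CPM. In bulk RNA, fewer cells of a type and less RNA per cell cannot be told apart.

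Mitochondrial DNA is transcribed from both strands into long precursors, which are cut at the tRNA genes that lie between the rRNA and protein-coding genes. The mRNAs encode core subunits of respiratory complexes I (mt-Nd genes), III (mt-Cytb), IV (mt-Co genes) and V (mt-Atp genes), while all other subunits of these complexes are encoded in the nucleus and imported. After processing, the level of each mitochondrial RNA depends largely on its own stability, which differs between transcripts.

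The genes lie close together and some share bases, which bears on how reads are assigned. The end of mt-Atp8 (chrM:7907-7969, plus strand) and the start of mt-Atp6 (chrM:7927-7989, plus strand) are shown because these genes overlap by 43 bases, in capitals, so that reads of this stretch can be given to either gene.
mt-Atp8: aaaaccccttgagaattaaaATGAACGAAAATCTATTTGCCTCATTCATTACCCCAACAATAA
mt-Atp6: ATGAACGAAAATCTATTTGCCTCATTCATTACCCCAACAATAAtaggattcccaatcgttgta

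mt-Nd5 (chrM:11742-13565, plus strand) and mt-Nd6 (chrM:13552-14070) meet end to end on opposite strands. Their ends (chrM:13536-13565 on the plus strand and chrM:13552-13581 on the minus strand) are shown with the 14 shared positions in capitals. mt-Nd6 was the only mRNA on the minus strand, and whether counting used strand is not given in the sources used here, so its reads cannot be told apart from antisense RNA of the opposite strand.
mt-Nd5: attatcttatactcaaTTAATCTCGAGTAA
mt-Nd6: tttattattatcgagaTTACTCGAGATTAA

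The tRNA genes were 59 to 75 bases long. The shortest, mt-Ts2 (chrM:11613-11671, plus strand), is shown as an example of a gene about as long as a read, since the labels give reads of 50 bases and the methods reads of 100 bases. Counts of 0 for all 22 tRNAs describe these libraries and do not measure tRNA levels.
mt-Ts2: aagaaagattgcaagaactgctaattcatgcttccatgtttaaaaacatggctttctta

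Near-identical copies of mitochondrial genes in the nuclear genome take part in the same counting. A search of the mitochondrial transcripts against 141767 GENCODE M21 transcripts (GRCm38) found 7 genes at 99% identity or more, all unprocessed pseudogenes on chromosome 1 that lie side by side on the minus strand. Of these, 5 had counts: Gm28661 (a copy of mt-Co2), Gm10925 (mt-Atp6), Gm28437 (mt-Co3), Gm28438 (mt-Nd3) and Gm29216 (the last bases of mt-Co1). The copies of mt-Nd4 (Gm28439) and mt-Nd4l (Gm10222) were at 0 in every tumor.

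The sequences below show how little separates a copy from its mitochondrial gene. Gm28661 (chr1:24614885-24615565) is identical to mt-Co2 over 681 bases, and only the last bases of mt-Co2, in capitals, lie beyond it. The ends are shown for mt-Co2 (chrM:7664-7696, plus strand) and for Gm28661 (chr1:24614885-24614914, minus strand).
mt-Co2: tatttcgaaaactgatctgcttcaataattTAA
Gm28661: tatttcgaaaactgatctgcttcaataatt

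Gm28438 differs from mt-Nd3 by T3C, counted from 1 at the 5′ end of mt-Nd3, over 345 aligned bases. The first bases are shown with this position in capitals, for mt-Nd3 (chrM:9459-9481, plus strand) and for Gm28438 (chr1:24613097-24613119, minus strand).
mt-Nd3: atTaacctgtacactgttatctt
Gm28438: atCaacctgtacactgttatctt

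Gm29216 matches mt-Co1 over 483 bases and differs there by A1066T, counted from 1 at the 5′ end of mt-Co1. The bases around it are shown in the same way, for mt-Co1 (chrM:6373-6413, plus strand) and for Gm29216 (chr1:24616165-24616197, minus strand). The copy's first bases, which are not part of the match, stand at the left of its line.
mt-Co1: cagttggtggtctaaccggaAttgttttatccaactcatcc
Gm29216: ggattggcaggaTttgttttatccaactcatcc

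Counts were divided between gene and copy very differently before and after CY. For the pair of mt-Nd3 and Gm28438, the copy received 0% to 10.1% of the counts at Day-1, 49.7% to 93.7% at Day+3 and 52.1% to 84.9% at Day+7, with medians of 1.84%, 80.3% and 73.5%. Gm28661 received a median of 0.553% of the counts of its pair with mt-Co2 at Day-1, 61.4% at Day+3 and 55.4% at Day+7, and Gm10925 a median of 0.0636%, 46.5% and 28.4% of those with mt-Atp6 at the same times. No tumor of Day-1 overlapped any tumor of Day+3 or Day+7 in these 3 pairs.

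Gm28437, at a median of 0%, 13.9% and 9.68% of its pair with mt-Co3 at Day-1, Day+3 and Day+7, spread widely after CY, with 0.358% to 30.4% at Day+3. Gm29216, the partial copy of mt-Co1, took 12.03% to 13.6% at Day-1, 23.4% to 27.0% at Day+3 and 22.2% to 23.8% at Day+7. In the pairs of mt-Co3 and mt-Co1 as well, no tumor of Day-1 overlapped any tumor of Day+3 or Day+7. Because a read of an identical stretch cannot be told apart from one of the copy, values of mt-Co1, mt-Co2, mt-Co3, mt-Atp6 and mt-Nd3 are uncertain, and each is given below also with the counts of its copy added, an alternative chosen after the counts were seen.

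**Figure D1:**
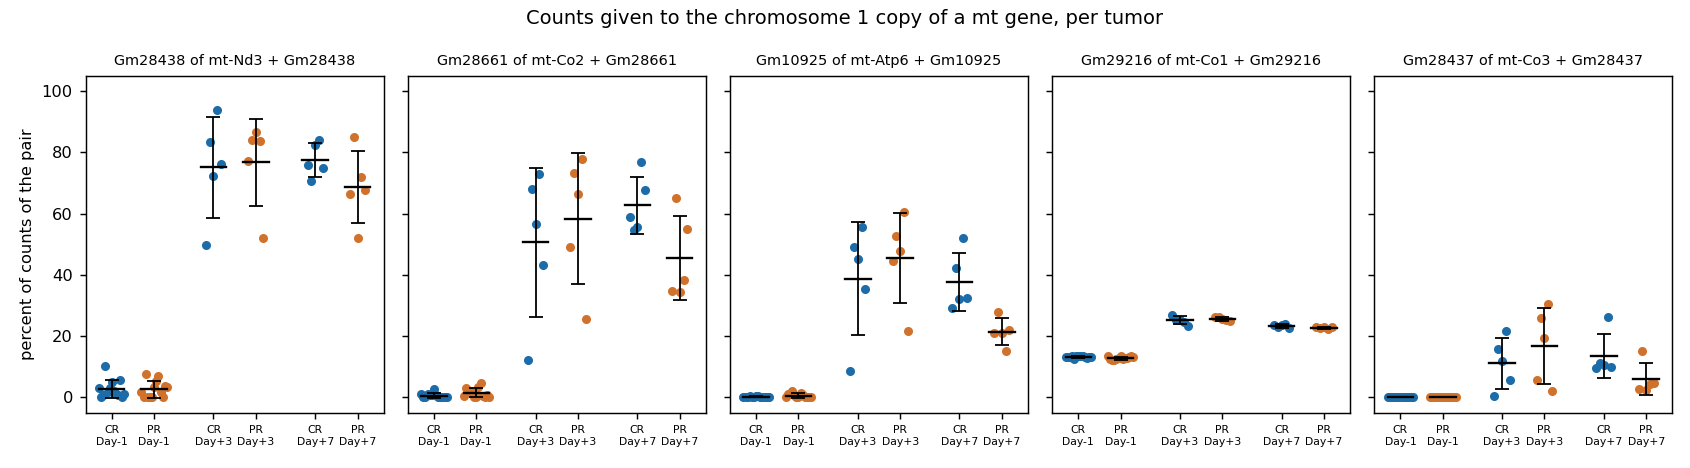
Percent of the counts of each gene and copy pair that was given to the copy on chromosome 1 (y axis, linear), in CR (blue) and PR (orange) tumors at Day-1, Day+3 and Day+7 (13, 5 and 5 tumors per group). Points are tumors, the wide line is the mean and bars are SD; the copies of mt-Nd3, mt-Co2 and mt-Atp6 took medians of 1.84%, 0.553% and 0.0636% at Day-1, against 80.3%, 61.4% and 46.5% at Day+3.

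Together, mitochondrial RNAs made up 6.15% ± 0.355 of covered counts in CR and 6.07% ± 0.418 in PR tumors at Day-1 (SD, n = 13 each). At Day+3 the share was 4.13%, 3.31%, 3.17%, 3.05% and 3.28% in the 5 CR tumors and 3.403%, 3.43%, 3.33%, 2.93% and 3.39% in the 5 PR tumors. At Day+7 it was 2.88%, 2.71%, 2.30%, 2.29% and 2.52% in CR tumors and 2.88%, 2.53%, 2.71%, 2.77% and 2.72% in PR tumors. The ranges of CR and PR overlapped at each time, while the lowest tumor of Day-1, at 5.41%, was above every tumor of Day+3 and Day+7.

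Over both responses the median share was 6.09% at Day-1, 3.32% at Day+3 and 2.71% at Day+7. With the counts of the copies added, it was 6.30%, 4.22% and 3.29%, and tumors of Day-1 (5.60% to 7.12%) still did not overlap those of Day+3 (3.92% to 4.74%), nor these the tumors of Day+7 (2.93% to 3.68%). The share is a sum over the members and carries no test.

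**Figure D2:**
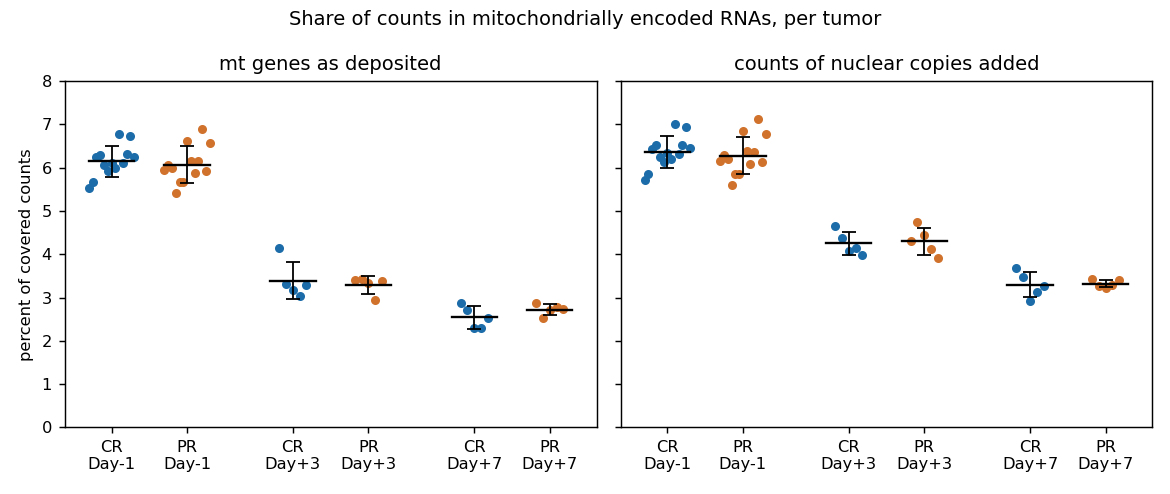
Percent of covered counts in the 37 mitochondrially encoded genes (y axis, from 0) per tumor, as deposited (left) and with the counts of the nuclear copies added (right), in CR (blue) and PR (orange) tumors by time. Points are tumors, the wide line is the mean and bars are SD; the median over both responses was 6.09% at Day-1, 3.32% at Day+3 and 2.71% at Day+7 as deposited.

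Levels of different genes were compared per kb of annotated length. At Day-1 the highest medians were those of mt-Atp6 (12150 CPM per kb), mt-Co2 (9677), mt-Co1 (8594) and mt-Cytb (8263), and the ranges of mt-Co1 (7433 to 9992) and mt-Cytb (6987 to 10128) overlapped. Those of mt-Atp6 (10626 to 14166) and mt-Co2 (7989 to 11262) overlapped as well. At Day+3 mt-Co3 led with 6033 CPM per kb, followed by mt-Co1 with 5663 and mt-Cytb with 3731. At Day+7 the order again began with mt-Co3 (7064) and mt-Co1 (6485). Ranges of mt-Co3 and mt-Co1 overlapped at Day+3 (4479 to 7726 and 5126 to 6638) and at Day+7 (4539 to 8021 and 4932 to 7388). With the copies added, the leading median per kb was that of mt-Co1 at Day+3 (7582) and Day+7 (8401), and ranges of mt-Co1, mt-Co2 and mt-Co3 overlapped at both times.

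The low end of the order at Day-1 was held by both rRNAs and mt-Atp8. mt-Rnr2 and mt-Rnr1, the RNAs of the large and small subunits of the mitochondrial ribosome, reached medians of 113 and 88.3 CPM per kb at Day-1, far under most of the mRNAs, and mt-Atp8 was lowest at each time, with 67.8, 52.5 and 35.05 CPM per kb at Day-1, Day+3 and Day+7. Reads from the overlap with mt-Atp6 shown above can be given to either gene. Whether ribosomal RNA was removed or poly(A) RNA selected is not given in the sources used here, so levels of the rRNAs do not measure the amount of mitochondrial ribosomes.

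The design asks first whether tumors of CR and PR differed. Counts were tested per gene with edgeR's quasi-likelihood test, and genes were called at a false discovery rate (FDR) under 0.1 over all genes tested. At Day-1, 0 of the 15 members were called, and 0 had an unadjusted p under 0.05, against 17.5% of the 10777 genes tested. Over all genes 0.00928% were called, which is 1 gene. The 15 log2 fold changes ran from -0.08 to 0.19 with a median of 0.01, close to the median of all genes (-0.01).

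The members farthest from 0 at Day-1 were the rRNAs. mt-Rnr1 ranged from 80.9 to 156 CPM in CR (median 91.6) and from 71.3 to 140 CPM in PR (median 83.4), a log2 fold change of 0.19 (SE 0.112, adjusted p = 0.375), and mt-Rnr2 had 0.15 (SE 0.0896, adjusted p = 0.379). Values of CR and PR overlapped for both. The mRNAs mt-Co1 (0.05, SE 0.0389), mt-Nd5 (0.02, SE 0.0482) and mt-Nd6 (0.02, SE 0.0621) did not pass the test, with adjusted p-values of 0.540, 0.878 and 0.885.

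The 3 members with the smallest p above 0 were mt-Rnr1, mt-Rnr2 and mt-Co3 (0.04, SE 0.0318, adjusted p = 0.484), and those below 0 were mt-Atp8 (-0.08, SE 0.0857, adjusted p = 0.681), mt-Nd3 (-0.05, SE 0.0684, adjusted p = 0.721) and mt-Nd2 (-0.03, SE 0.0455, adjusted p = 0.802). mt-Atp8 encodes a small subunit of ATP synthase, mt-Nd2 and mt-Nd3 subunits of complex I.

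At Day+3, 0 of 15 members were called and 0 had an unadjusted p under 0.05, where 0% of all genes were called and 2.16% had such a p. The log2 fold changes ran from -0.05 to 0.28. mt-Rnr1 was 0.17 (SE 0.217), mt-Rnr2 0.25 (SE 0.316), mt-Co1 -0.01 (SE 0.0695), mt-Nd5 -0.05 (SE 0.0704) and mt-Nd6 -0.04 (SE 0.107), all with adjusted p-values next to 1. mt-Co2 stood at 4817, 1612, 2053, 1306 and 2550 CPM in CR and at 2565, 1472, 1723, 1028 and 3401 CPM in PR, so the groups overlapped.

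Without the CR tumor CT3_1, which had the highest mitochondrial share of this time (4.13%) and the highest mt-Co2, the log2 fold change of mt-Atp6 was -0.08 in place of 0.17. CT3_1 also had the lowest copy portion of its time for these pairs, with 8.50% for mt-Atp6 and 12.3% for mt-Co2. With the copies added, the 15 log2 fold changes ran from -0.05 to 0.25, and mt-Atp6 (-0.02) and mt-Co2 (-0.01) were near 0.

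At Day+7, 0 of 15 members were called, where 0% of all genes were, and 2 had an unadjusted p under 0.05, against 2.84% of all genes. These were mt-Atp6, a subunit of the proton channel of ATP synthase (log2 fold change -0.35, SE 0.139, p = 0.0281, adjusted p = 0.967), and mt-Co2, the subunit of complex IV that takes up electrons from cytochrome c (-0.59, SE 0.259, p = 0.0434, adjusted p = 0.967). mt-Co2 had 2486, 2409, 2186, 945 and 1706 CPM in CR and 3539, 1786, 3551, 3227 and 2568 CPM in PR. A single PR tumor (1786) fell within the range of the CR tumors.

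The copies Gm28661 and Gm10925 leaned the other way, though 0% of all genes were called in this comparison. Values of Gm28661 overlapped between CR and PR, while those of Gm10925 did not. Gm28661 had 3577, 2910, 2756, 3118 and 3561 CPM in the same CR tumors and 1879, 3318, 1869, 1993 and 3149 CPM in the PR tumors, and with its counts added mt-Co2 had a log2 fold change of -0.06 (SE 0.104, adjusted p = 0.967). Gm10925 had 1134, 1413, 1002, 1581 and 1062 CPM in CR and 739, 921, 709, 516 and 769 CPM in PR. With Gm10925 added, mt-Atp6 had -0.03 (SE 0.0830, adjusted p = 0.985). Over the 15 members with copies added, values ran from -0.15 to 0.13 and 0 had an unadjusted p under 0.05.

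Of the other members at Day+7, mt-Nd3 had -0.41 (SE 0.275) as deposited and 0.06 (SE 0.0661) with its copy added. Above 0, mt-Cytb (0.13, SE 0.0920), mt-Nd2 (0.10, SE 0.0873) and mt-Nd4l (0.07, SE 0.0691) had the smallest p-values. mt-Rnr1 (-0.15, SE 0.160), mt-Rnr2 (-0.12, SE 0.180), mt-Co1 (-0.09, SE 0.113), mt-Nd6 (-0.05, SE 0.0723) and mt-Nd5 (-0.01, SE 0.0731) did not pass the test either, each at an adjusted p of 0.967 or above.

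Whether the difference between CR and PR at a later day differed from that at Day-1 was tested with an interaction term over all 46 tumors. At Day+3, 0 of 15 members were called (0% of all genes) and 0 had an unadjusted p under 0.05 (3.49% of all genes). At Day+7, 0 of 15 members were called (0.00758% of all genes) and 1 had an unadjusted p under 0.05 (11.5% of all genes), and with copies added 0 had. The interaction values of the 15 members ran from -0.07 to 0.23 at Day+3 and from -0.64 to 0.15 at Day+7. At Day+3 the interaction was -0.03 for mt-Rnr1 (SE 0.234), 0.10 for mt-Rnr2 (SE 0.259), -0.07 for mt-Co1 (SE 0.0896), -0.07 for mt-Nd5 (SE 0.0893) and -0.07 for mt-Nd6 (SE 0.119). At Day+7 it was -0.35 for mt-Rnr1 (SE 0.233), -0.28 for mt-Rnr2 (SE 0.259), -0.14 for mt-Co1 (SE 0.0896), -0.03 for mt-Nd5 (SE 0.0894) and -0.08 for mt-Nd6 (SE 0.119).

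Time after CY separated the tumors, and it goes with tumor age, depth and possibly sequencing run, which cannot be told apart here. At Day+3 against Day-1, 1 of the 15 members was higher (37.9% of all genes) and 12 were lower (39.6% of all genes), where 77.6% of the 13194 genes were called in either direction. The median log2 fold change was -1.15 for the 15 members and -0.02 for all genes. At Day+7 against Day-1, 3 were higher (43% of all genes) and 12 lower (42.8%), of 85.9% called in either direction (83.9% of all genes had an unadjusted p under 0.05), with a median of -1.47 for the members and -0.01 for all genes. With copies added the members had 2 higher and 11 lower at Day+3 (median -0.67), and 3 higher and 11 lower at Day+7 (median -0.95).

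**Figure D3:**
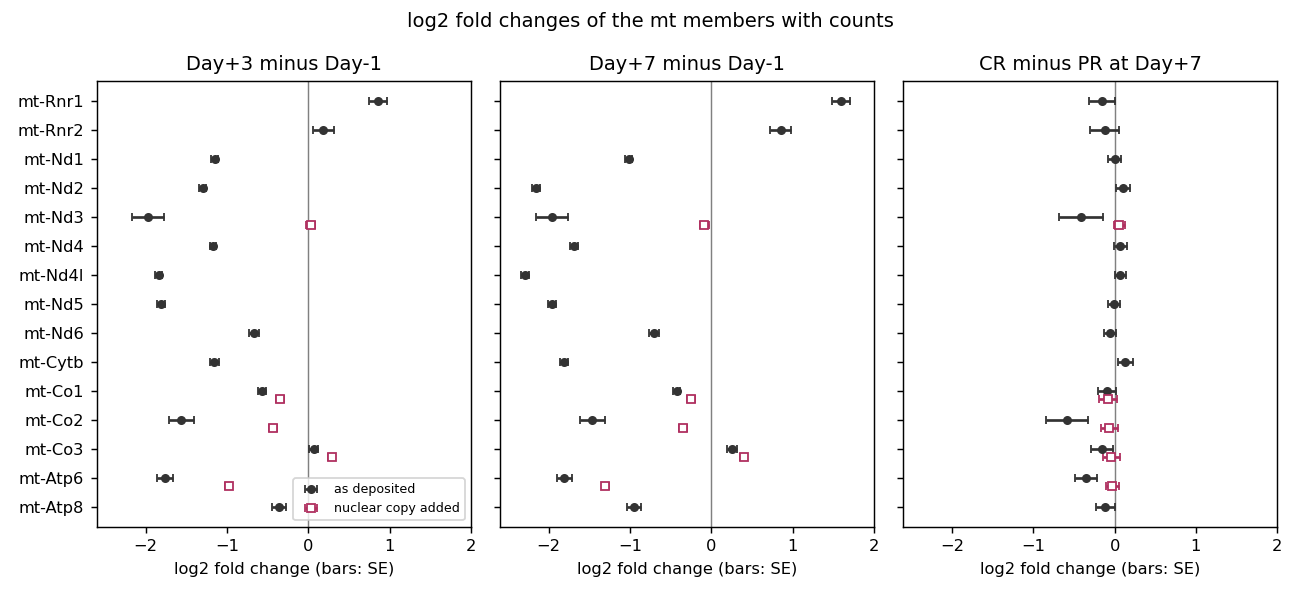
log2 fold changes (x axis) of the 15 members with counts at Day+3 against Day-1, at Day+7 against Day-1 and in CR against PR at Day+7. Circles are the counts as deposited, open squares the counts with the nuclear copy added, and bars are SE; mt-Nd4l, without counts in a copy, stood at -1.84 and -2.29 in the time comparisons, while mt-Nd3 at Day+3 had -1.97 as deposited and 0.03 with its copy added.

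All 7 mRNAs of complex I, the NADH dehydrogenase that passes electrons to ubiquinone, were lower at both later times as deposited. mt-Nd4l had 381 to 511 CPM at Day-1, 102 to 134 at Day+3 and 80.4 to 100.3 at Day+7 (medians 433, 120.5 and 87.6), without overlap between any of the 3 times. It was 3.58-fold lower at Day+3 (log2 fold change -1.84, SE 0.0466, adjusted p = 1.21e-32) and 4.90-fold lower at Day+7 (-2.29, SE 0.0481, adjusted p = 2.40e-36).

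mt-Nd5, a subunit of the proton-pumping arm, had 2357 to 3223 CPM at Day-1, 666 to 875 at Day+3 and 619 to 742 at Day+7 (medians 2659, 762 and 689.6). Its log2 fold change was -1.81 at Day+3 (SE 0.0498, adjusted p = 2.52e-31) and -1.96 at Day+7 (SE 0.0502, adjusted p = 2.63e-33). Most of its decrease was thus already there at Day+3, and the later times overlapped.

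mt-Nd2, another membrane subunit of complex I, went on to lower values. It had 4280 to 5960 CPM at Day-1, 1787 to 2156 at Day+3 and 998 to 1359 at Day+7 (medians 4849, 1986 and 1077), with no overlap between times. Its log2 fold changes were -1.30 at Day+3 (SE 0.0453, adjusted p = 9.83e-28) and -2.16 at Day+7 (SE 0.0479, adjusted p = 1.68e-35). mt-Nd4 took a similar course, with medians of 5395, 2411 and 1679 CPM at the 3 times and no overlap between them, and log2 fold changes of -1.17 and -1.69.

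mt-Nd1 behaved otherwise between the later times. Its medians were 3498, 1611 and 1766 CPM, with log2 fold changes of -1.15 at Day+3 and -1.02 at Day+7, and Day+7 was slightly above Day+3 with TMM scaling (0.13, SE 0.0499, adjusted p = 0.0164) but below it without (-0.15). mt-Nd6, the minus-strand gene, had 609 to 919.5 CPM at Day-1, 384 to 579 at Day+3 and 400.5 to 503 at Day+7, and fell less than mt-Nd5 beside it, with -0.67 at Day+3 (SE 0.0615, adjusted p = 2.72e-13) and -0.71 at Day+7 (SE 0.0617, adjusted p = 3.06e-14).

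mt-Nd3 was the member whose result depended most on its copy. As deposited it had a median of 303 CPM at Day-1, 64.3 at Day+3 and 79.7 at Day+7 and was called lower at both times (-1.97 and -1.96, SE 0.198 and 0.199). With Gm28438 added the medians were 312, 312 and 287 CPM, and the log2 fold changes of 0.03 (SE 0.0574, adjusted p = 0.635) and -0.09 (SE 0.0578, adjusted p = 0.151) did not pass the test.

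mt-Cytb, the cytochrome b of complex III, had 7993 to 11587 CPM at Day-1, 3944 to 4724 at Day+3 and 2396 to 3258 at Day+7 (medians 9452, 4268 and 2631). The 3 times did not overlap. It was 2.23-fold lower at Day+3 (log2 fold change -1.15, SE 0.0502, adjusted p = 2.29e-24) and 3.52-fold lower at Day+7 (-1.81, SE 0.0524, adjusted p = 1.55e-31).

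The 3 mRNAs of complex IV, cytochrome c oxidase, differed among themselves. mt-Co1, its catalytic subunit, had 11484 to 15438 CPM at Day-1, 7920 to 10255 at Day+3 and 7620 to 11414 at Day+7 (medians 13277, 8749 and 10020). Its log2 fold change was -0.57 at Day+3 (SE 0.0462, adjusted p = 5.88e-15) and -0.43 at Day+7 (SE 0.0458, adjusted p = 1.53e-11). With Gm29216 added these were -0.35 and -0.25, still called, but the tumors of Day-1 then overlapped those of both later times.

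mt-Co2 was -1.56 at Day+3 and -1.47 at Day+7 as deposited, and -0.43 (SE 0.0489, adjusted p = 9.62e-11) and -0.35 (SE 0.0487, adjusted p = 1.70e-08) with Gm28661 added. mt-Co3 was the only mRNA above 0, with medians of 4434, 4730 and 5538 CPM at the 3 times. It was not called at Day+3 (0.07, SE 0.0565, adjusted p = 0.268) and was called higher at Day+7 (0.25, SE 0.0560, adjusted p = 7.19e-05), and with Gm28437 added it was called higher at both, with 0.29 and 0.39. mt-Co3 passed the test at Day+3 under other settings, among them DESeq2 and total counts without TMM, and leaving out single tumors gave up to 3 higher members (without the CR tumor CT10). The call at Day+7 was lost without TMM scaling (0.08, adjusted p = 0.148).

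Of the mRNAs of complex V, the ATP synthase, mt-Atp6 had medians of 8274, 2280 and 2534 CPM at the 3 times, with log2 fold changes of -1.76 and -1.81 as deposited and -0.98 (SE 0.0437) and -1.30 (SE 0.0446) with Gm10925 added, all called. mt-Atp8, which shares bases with it, had 10.0 to 20.5 CPM at Day-1, 8.16 to 14.1 at Day+3 and 5.98 to 7.82 at Day+7, with -0.36 (SE 0.0836) and -0.95 (SE 0.0876). It was the least abundant mRNA, with 86 to 244 counts per tumor.

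Both rRNAs went in the opposite direction. mt-Rnr1 had 71.3 to 156 CPM at Day-1, 113 to 243 at Day+3 and 162 to 332 at Day+7 (medians 84.3, 158 and 288). It was 1.81-fold higher at Day+3 (log2 fold change 0.86, SE 0.113, adjusted p = 5.31e-09), where the ranges overlapped, and 3.01-fold higher at Day+7 (1.59, SE 0.110, adjusted p = 1.23e-17), where they did not. mt-Rnr2 had medians of 179, 198 and 322 CPM, was not called at Day+3 (0.18, SE 0.129, adjusted p = 0.195) and was called higher at Day+7 (0.85, SE 0.125, adjusted p = 4.36e-08), with overlapping ranges at both times.

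Between Day+7 and Day+3, 5 of 15 members were higher (38.8% of all genes) and 6 lower (36.5%), of 75.3% called in either direction. The higher ones were mt-Rnr1 (0.74, SE 0.140), mt-Rnr2 (0.67, SE 0.156), mt-Co3 (0.18, SE 0.0682), mt-Co1 (0.14, SE 0.0538) and mt-Nd1. The lower ones were led by mt-Nd2 (-0.86, SE 0.0509), mt-Cytb (-0.66, SE 0.0567) and mt-Nd4 (-0.52, SE 0.0481), while mt-Nd5 was lower by a small amount (-0.14, SE 0.0537, adjusted p = 0.0152) and mt-Nd6 was not called (-0.03, SE 0.0713, adjusted p = 0.680). With total counts in place of TMM scaling, 2 were higher and 10 lower, and mt-Co1 (-0.14), mt-Co3 (-0.11) and mt-Nd1 (-0.15) changed sign. That scaling also gave the median of all genes as -0.26, against 0.02 with TMM, so the direction of the small changes of this comparison rests on the scaling. Without the CR tumor CT7_2 the count of higher members was 2, and without the PR tumor CT7_10 it was 3.

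Ratios within a tumor do not depend on library scaling. The log2 ratio of mt-Nd6 to mt-Nd5 had a mean of -1.91 ± 0.0621 at Day-1 (SD, n = 26), -0.77 ± 0.149 at Day+3 and -0.65 ± 0.0884 at Day+7 (n = 10 each), and Day-1 overlapped neither later time. The log2 ratio of both rRNAs to the summed mRNAs of mt-Nd1, mt-Nd2, mt-Nd4l, mt-Nd5, mt-Cytb and mt-Atp8 had means of -6.25 ± 0.254, -4.60 ± 0.527 and -3.39 ± 0.340 at the 3 times. The log2 count ratio of mt-Rnr1 to mt-Rnr2, not scaled for length, was -1.01 ± 0.136 at Day-1, -0.28 ± 0.204 at Day+3 and -0.25 ± 0.128 at Day+7. Per kb, mt-Rnr1 and mt-Rnr2 had medians of 88.3 and 113 CPM at Day-1, 166 and 125 at Day+3 and 302 and 203 at Day+7. Over tumors, their ranges per kb overlapped at each time. Within each tumor, mt-Rnr1 per kb was below mt-Rnr2 throughout Day-1 and above it throughout Day+3 and Day+7. The log2 count ratio ranged from -1.24 to -0.80 at Day-1, -0.53 to 0.007 at Day+3 and -0.43 to -0.03 at Day+7.

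Pairs on the plus strand shifted too. The log2 ratio of mt-Nd2 to mt-Nd1 was 0.45 ± 0.0414 at Day-1, 0.31 ± 0.0900 at Day+3 and -0.69 ± 0.178 at Day+7. That of mt-Cytb to mt-Nd1 was 1.40 ± 0.0942 at Day-1, 1.40 ± 0.0592 at Day+3 and 0.60 ± 0.169 at Day+7. The neighbours mt-Nd4l and mt-Nd4, which share 7 bases, were at -3.67 ± 0.135, -4.35 ± 0.0992 and -4.28 ± 0.0474.

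**Figure D4:**
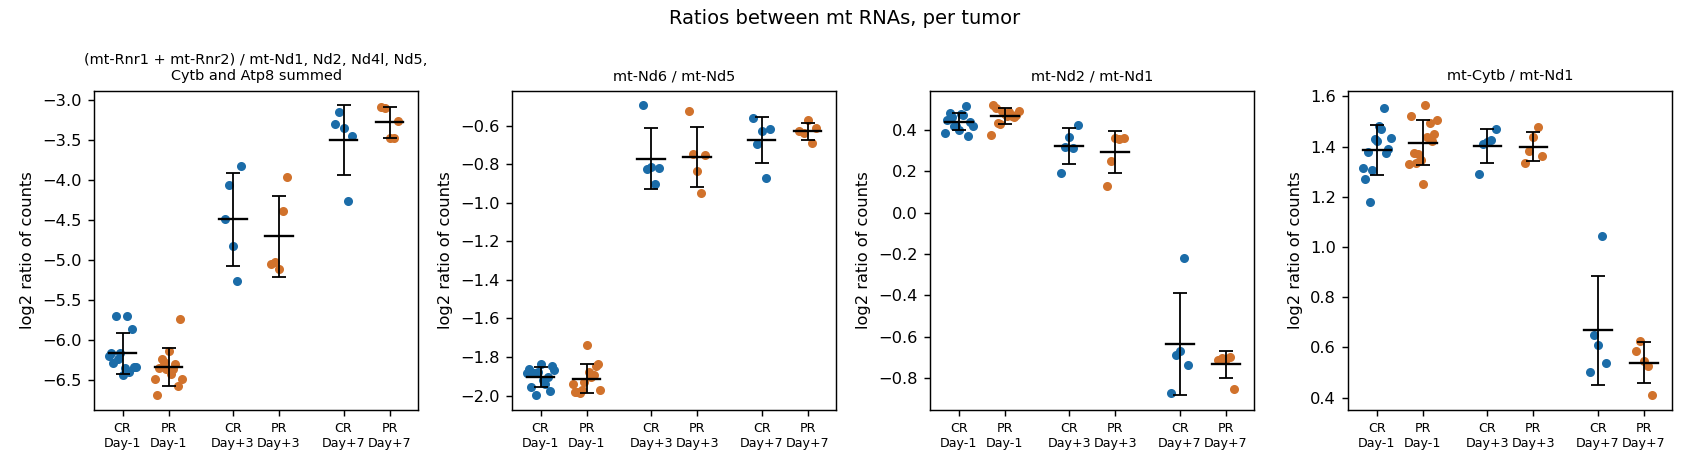
log2 ratios of counts between mitochondrial RNAs (y axis, a separate scale in each panel) per tumor in CR (blue) and PR (orange) at Day-1, Day+3 and Day+7. Points are tumors, the wide line is the mean and bars are SD; mt-Nd6 to mt-Nd5 had means of -1.91, -0.77 and -0.65 at the 3 times, and mt-Cytb to mt-Nd1 1.40, 1.40 and 0.60.

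As a share of mitochondrial counts, the 3 mRNAs of complex IV made up a median of 40.3% at Day-1, 52.1% at Day+3 and 61.3% at Day+7, and 42.2%, 57.8% and 65.8% with the copies added. Tumors of Day-1 (37.8% to 44.2%) did not overlap those of Day+3 (49.8% to 54.3%) or Day+7 (51.8% to 63.6%). The share of mt-Co1 was 21.9%, 30.3% and 33.8% at the 3 times, and that of mt-Cytb 15.6%, 14.01% and 8.93%. The rRNAs together made up 0.0205% to 0.0682% of covered counts in all 46 tumors.

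Tumor CT7_6 of CR at Day+7 stood apart from the others of its day. It had the highest mt-Nd2 (1359 CPM) and the lowest mt-Rnr1 (162 CPM) of all 10 tumors of that day, and its ratio of mt-Nd2 to mt-Nd1, at -0.22, lay between those of the other Day+7 tumors and of Day+3. Without it, mt-Nd2 had a log2 fold change of -2.18 and mt-Rnr1 of 1.67 at Day+7 against Day-1.

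Proteins encoded in the nucleus complete the same complexes and maintain mitochondrial RNA. Of 78 nuclear genes listed for subunits of the respiratory chain and ATP synthase, 74 were tested. The list was built from symbols of Nduf, Cox and Atp5 subunits, with Cyc1 and the electron carrier Cycs. Sdh and Uqcr genes are not in it, so it covers only part of the nuclear subunits. At Day+3 against Day-1, 56 were higher and 12 lower (37.9% and 39.6% of all genes), with a median log2 fold change of 0.49, against -0.02 for all genes. At Day+7, 63 were higher and 6 lower (43% and 42.8% of all genes), with a median of 0.68, against -0.01 for all genes. Between CR and PR, 0 were called at each of the 3 times, where 0.00928%, 0% and 0% of all genes were called.

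Ndufa1, a small membrane subunit of complex I, had 18.2 to 27.8 CPM at Day-1, 54.9 to 64.8 at Day+3 and 61.5 to 86.8 at Day+7, and was higher at both later times (1.42, SE 0.0469, and 1.83, SE 0.0464). Cox6c, a subunit of complex IV, had medians of 217, 449 and 386 CPM and a log2 fold change of 1.11 at Day+3 (SE 0.0317). Atp5k, a subunit of ATP synthase, had medians of 59.8, 105.1 and 165 CPM and a log2 fold change of 1.43 at Day+7 (SE 0.0420). Most of the listed nuclear subunits were thus higher at the times when most mitochondrial mRNAs were lower. Exceptions stood on both sides (12 and 6 nuclear subunits lower, and mt-Co3 higher at Day+7).

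**Figure D5:**
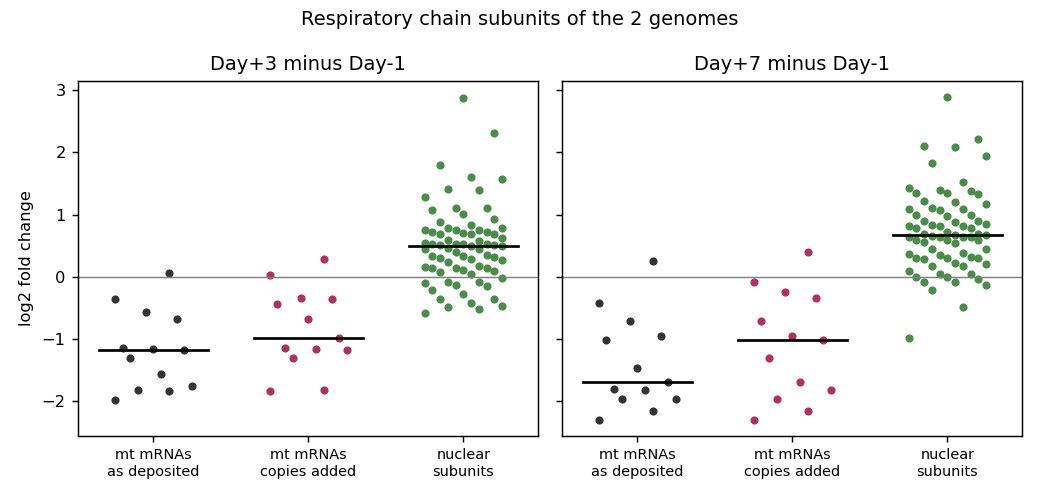
log2 fold changes (y axis) of the 13 mitochondrial mRNAs as deposited, of the same 13 with the counts of nuclear copies added, and of 74 nuclear subunits of the respiratory chain and ATP synthase, at Day+3 against Day-1 (left) and Day+7 against Day-1 (right). Points are genes and bars are medians. The nuclear subunits, taken from Nduf, Cox and Atp5 symbols with Cyc1 and Cycs, had medians of 0.49 and 0.68.

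Transcript length and base composition went with these changes over all genes. The median log2 fold change at Day+3 was 0.20 in the first of 4 equal bins of genes, with the shortest transcripts, and -0.28 in the last, with the longest, and 0.26 and -0.26 at Day+7. Of the 73 nuclear subunits with a known length, 51 were in the shortest bin, with a median of 0.53 at Day+3 and 0.68 at Day+7. The mitochondrial members, at 31.9% to 41.1% GC, all lay in the bin of 4 with the lowest GC content, where all genes together had a median of -0.25 at Day+3 and -0.21 at Day+7, and 14 of the 15 lay in the shortest bin. The part of length and base composition in the changes was not tested.

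Genes that act on mitochondrial RNA were called in both directions. For this and the following lists, the shares over all genes were 37.9% higher and 39.6% lower at Day+3. At Day+7 they were 43% and 42.8%, and the medians of all genes were -0.02 at Day+3 and -0.01 at Day+7. Of 15 genes for its processing and stability, 5 were higher and 10 lower at Day+3 (median -0.31), and 3 higher and 10 lower at Day+7 (median -0.36). Lrpprc, which stabilizes mitochondrial mRNAs, had 102 to 138 CPM at Day-1, 65.9 to 75.5 at Day+3 and 69.8 to 84.0 at Day+7 (log2 fold changes -0.79, SE 0.0364, and -0.61, SE 0.0361). Mterf4, which acts in assembly of the mitochondrial ribosome, had medians of 28.8, 77.3 and 47.1 CPM and was higher at Day+3 (1.41, SE 0.0585). Fastkd1, of the FASTK family of mitochondrial RNA-binding proteins, was lower at Day+7 (-0.85, SE 0.0516).

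Of 12 genes for mitochondrial aminoacyl-tRNA synthetases, 4 were higher and 7 lower at Day+3 and 4 higher and 8 lower at Day+7. Mars2, which charges the mitochondrial tRNA of methionine, had medians of 33.8, 19.2 and 10.8 CPM at the 3 times (-1.62 at Day+7, SE 0.0588), and Iars2, that of isoleucine, 181, 112 and 99.4 CPM (-0.72 at Day+3, SE 0.0397). Kars, whose product also serves the cytosol, was lower at Day+3 (-0.68, SE 0.0456).

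Of 9 translation factors, 2 were higher and 5 lower at Day+3 and 4 higher and 5 lower at Day+7. Gfm1, an elongation factor of the mitochondrial ribosome, had medians of 146, 67.4 and 65.6 CPM (-1.07, SE 0.0385, and -1.15, SE 0.0388). Of 12 genes that modify mitochondrial rRNA or tRNA, 5 were higher and 3 lower at each later time. Mrm2, an rRNA methyltransferase, was higher at Day+3 (0.70, SE 0.0634) and Mettl17, which acts on the small ribosomal subunit, at Day+7 (1.14, SE 0.0429).

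Of 9 genes of mitochondrial DNA maintenance, 6 were higher and 2 lower at Day+3 and 6 higher and 3 lower at Day+7. Lig3, the DNA ligase of mitochondria and nucleus, was lower at both times (-0.97, SE 0.0412, and -1.23, SE 0.0421), while Dna2, a helicase and nuclease, had medians of 48.9, 17.4 and 89.2 CPM and changed direction (-1.52, SE 0.0544, and 0.90, SE 0.0468). Of 6 regulators of mitochondrial biogenesis, 1 was higher and 4 were lower at each later time, among them Gabpa, a transcription factor of nuclear respiratory genes (-1.01, SE 0.0374, and -0.90, SE 0.0372), and Myc (-2.08 at Day+3, SE 0.106).

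Of 13 genes of mitochondrial fission, fusion and mitophagy, 5 were higher and 6 lower at Day+3 and 7 higher and 5 lower at Day+7. Fis1, an outer membrane protein of fission, had 62.2 to 77.5 CPM at Day-1, 138 to 173 at Day+3 and 163 to 209 at Day+7 (1.15, SE 0.0362, and 1.43, SE 0.0359), and Dnm1l, the fission GTPase, was lower (-0.67, SE 0.0275, and -0.53, SE 0.0273). In the same comparisons, 77.6% and 85.9% of all genes were called in either direction. Whether any of these lists differs from all genes was not tested.

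Levels of cell type markers moved with time as well. The summed level of 6 myeloid markers, none at 0 in every tumor, ranged from 2110 to 4713 CPM at Day-1, 6959 to 8913 at Day+3 and 9245 to 17057 at Day+7 (medians 2950, 7710 and 13391). Lyz2 made up most of it, with medians of 1515, 6027 and 10148 CPM. Against Day-1, 5 of the myeloid markers were higher and 1, Itgam, lower at Day+3 (log2 fold change -0.66), while 6 of 6 were higher at Day+7. Over all genes 37.9% were higher and 39.6% lower at Day+3, and 43% and 42.8% at Day+7. Summed T cell markers ranged from 18.98 to 115 CPM, 21.6 to 59.7 and 74.9 to 483, fibroblast markers from 19313 to 31978 CPM, 28152 to 33141 and 10366 to 31621, and red blood cell markers from 17.5 to 123 CPM, 2.90 to 7.64 and 228 to 570. Of the 5 fibroblast markers, 4 were higher and 0 lower at Day+3, and 2 were higher and 3 lower at Day+7. Of 12 markers of skeletal muscle, a tissue rich in mitochondria, 1 was higher and 3 were lower at Day+3 and 11 were higher at Day+7, with sums of 184 to 1442 CPM, 263 to 708 and 469 to 2666. The part of myeloid, T cell, fibroblast and red blood cells in the mitochondrial values was not tested.

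With muscle and keratinocyte levels as covariates, the members called at Day+3 and Day+7 against Day-1 had the same counts in each direction as without them. mt-Nd5 then had log2 fold changes of -1.81 at Day+3 and -1.96 at Day+7, and mt-Rnr1 of 0.88 and 1.54. Levels of myeloid, T cell, fibroblast and red blood cell markers were not among the covariates.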

How the data were processed

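Per the labels and methods, RNA of whole tumors was extracted with Trizol and chloroform, cleaned on RNeasy MinElute columns and sequenced single-end. The authors quantified reads with kallisto against GRCm38.p6, as the submitters' processing notes name it, and deposited whole-number counts per gene symbol. The kallisto version, the library kit and the use of strand are not given in the sources used here. How reads of near-identical genes were shared out in that step can move the counts of a mitochondrial gene and its copy. The table ends within Pax7, a row that was incomplete and was left out, and 13 rows carry dates in place of symbols.

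The deposited counts were analysed in R 4.3.3 with edgeR 4.0.16 (TMM library sizes, filterByExpr, quasi-likelihood test, Benjamini-Hochberg FDR under 0.1). Tests of CR against PR used the tumors of 1 time. Times (as the mean of CR and PR) and interactions were contrasts of 1 model of the 6 groups over all 46 tumors. The labels name no batch, and nothing beyond separate mice marks the replicates. None of the 1035 pairs of libraries had identical counts. Sequences and positions come from GENCODE M21 (GRCm38), and copies were found with BLAST 2.17.0. DESeq2 1.42.0 and limma 3.58.1 were alternatives. The procedure was tested on simulated data. In CR against PR it recovered 81.5% of 1.5-fold and 95.5% of 2-fold changes at Day-1, 54.5% and 79.5% at Day+3, and 37.5% and 67.5% at Day+7. Against Day-1 it recovered 72.5% and 90.5% at Day+3, and 70% and 89% at Day+7. Each simulation changed 200 genes, up or down at random, and gave 4 to 25 false calls. In the measured time comparisons against Day-1, 77.6% and 85.9% of genes were called, so these rates need not hold there. The members and gene lists were chosen with earlier results of these data known. Test values are given for mt-Rnr1, mt-Rnr2, mt-Co1, mt-Nd5 and mt-Nd6 in each comparison and for up to 3 members in each direction with the smallest p, and for up to 2 called genes of each other list. Other members are described because their values depend on a copy, and were chosen after these were seen.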

Additional observations from a re-analysis of the deposited data

Results flagged for a closer look

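Within each group of 5 tumors, 23 measures were searched for a tumor far from the others, 92 sets of values in all, and 5 had one. Chance alone marks about 1 in 20 groups, and 5.4% were marked here. In CR at Day+3, tumor CT3_1 had the highest mitochondrial share, 4.13% against 3.05% to 3.31% in the others. In PR at Day+3, tumor CT3_7 had the lowest share, 2.93% against 3.33% to 3.43%. With the nuclear copies added, neither tumor stood apart in its share.

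The other 3 were in CR at Day+7. Tumor CT7_6 had the highest mt-Nd2, 10.41 log2 CPM against 10.06 to 10.10 in the others, and the lowest mt-Rnr1, 7.34 log2 CPM against 8.07 to 8.31. Tumor CT7_2 had the highest mt-Nd6, 8.98 log2 CPM against 8.65 to 8.73.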

How the results depend on the processing

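No paired analysis was possible because no 2 tumors share a mouse and the labels number no pairs. Besides leaving out each of the 46 tumors, 15 other settings were tried; thinning to the smallest total, leaving out 16 tumors over 10 CPM of Krt5 and adding the nuclear copies were chosen after seeing the data. Members called higher at Day+3 against Day-1 were 1, but 2 with DESeq2, with its size factors, without a filter and with copies added, and 3 without TMM and without the Krt5 tumors. At Day+7 against Day+3 members called higher were 5, but 2 without TMM and 3 without a filter or the Krt5 tumors, and those called lower were 6, but 10 without TMM. Nuclear respiratory genes called there were 48 higher and 9 lower, but 18 and 34 without TMM, and those lower at Day+7 against Day-1 were 6, but 12 without TMM and 2 without the Krt5 tumors. In CR against PR at Day-1, DESeq2 called 1 nuclear gene higher and 1 lower, and limma-voom 3 lower, against 0. The median share with copies added was 4.22% at Day+3 and 3.29% at Day+7. The causes were not tested.

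Over the 15 members and all comparisons, 41 of 120 log2 fold changes lay on both sides of 0 among the settings, and 38 when single tumors were left out. Of called members, mt-Co1, mt-Co3 and mt-Nd1 (-0.15) at Day+7 against Day+3 without TMM, and mt-Nd3 at Day+3 against Day-1 with copies added (0.03), changed sign, and none did when a tumor was left out. Among the members with a test value under the naming rule, those that changed sign were, for Day+7 against Day+3, mt-Nd6 (0.0114 with limma-voom), mt-Co1 (-0.14) and mt-Co3 (-0.11) without TMM. For CR against PR at Day+7 they were mt-Nd5 (0.0194 without TMM, 0.00815 thinned), mt-Co1 (0.0451), mt-Nd2 (-0.0140) and mt-Nd4l (-0.0493) without the Krt5 tumors, and mt-Nd3 (0.0562) with copies added. At Day+3 mt-Atp6 was -0.0206 with copies added. Among interactions they were mt-Rnr2 (-0.0315 with limma-voom, -0.0309 without the Krt5 tumors) and mt-Rnr1 (0.0483 with marker covariates) at Day+3, and mt-Co1 (0.00814 without the Krt5 tumors) at Day+7. None of these values passed the test in CR against PR or as an interaction.

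Leaving out single tumors gave 1 to 3 members higher at Day+3 against Day-1, 2 to 6 at Day+7 against Day+3, and 0 to 1 nuclear genes lower in CR against PR at Day-1. Among the same members, log2 fold changes that crossed 0 were, for CR against PR, mt-Nd2 at Day-1 (-0.0424 to 0.000746), mt-Atp6 (-0.0827 to 0.303), mt-Co1 (-0.0546 to 0.0346), mt-Nd6 (-0.157 to 0.0033) and mt-Cytb (-0.0502 to 0.0075) at Day+3 and mt-Nd5 (-0.0403 to 0.0361) at Day+7. The others were mt-Nd6 at Day+7 against Day+3 (-0.0923 to 0.0222) and, among interactions, mt-Rnr1 (-0.17 to 0.13) and mt-Rnr2 (-0.0723 to 0.334) at Day+3 and mt-Nd5 (-0.0553 to 0.0146) at Day+7.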
